A study of Homo sapiens with 60 samples.

Results

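The 10 genes described here make, recharge and use the cell's main thiol reducing agents, or control the others: SLC7A11, GCLC, GCLM, GSS and GSR of the glutathione arm, TXN, TXNRD1, SRXN1 and PRDX1 of the thioredoxin arm, and NFE2L2, which encodes NRF2. They were chosen by symbol from a table of 60675 genes, each matched 1 Ensembl identifier, and all 10 passed the filter on low counts that left 17190 genes for testing. RNA was measured by sequencing in SW1783, an established human astrocytoma line, 24 h after water extracts of medicinal herbs or herbal formulas were added. Citri Unshius Pericarpium, Cimicifugae Rhizoma, Bupleuri Radix, Aconiti Lateralis Radix Preparata, Yijung-tang and Banhasasim-tang were each given at 20, 100 and 500 µg/mL, called the low, medium and high dose, with 3 libraries per dose. Bojungikgi-tang was given at the same 3 doses with 1 library per dose. The vehicle group of 3 libraries received DMSO, at 0.1% per the treatment protocol and at 2% per the series' design text. All groups share the line, which is 1 line from a single tumour, and the labels do not say whether libraries of a group came from separate cultures, so p-values measure only the spread between these libraries, which may be technical.

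Glutathione is a tripeptide of glutamate, cysteine and glycine that cells keep at high concentration to reduce peroxides and to tag electrophiles. Cystine enters through the transporter SLC7A11, the dimer of GCLC and GCLM joins glutamate to cysteine, GSS adds glycine, and GSR reduces the oxidised form again with NADPH. Thioredoxin (TXN) is recharged by thioredoxin reductase (TXNRD1) and in turn reduces peroxiredoxins such as PRDX1, whose overoxidised form is repaired by sulfiredoxin (SRXN1). NRF2 is held at a low level by KEAP1, which directs its degradation, and when this stops it binds antioxidant response elements with a small MAF protein and raises transcription of many of these genes. Because that control acts mainly on the protein, the NFE2L2 transcript is not itself a measure of NRF2 activity.

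The antioxidant response element core, TGACNNNGC, was looked for on both strands of RefSeq promoter windows (GRCh38.p14, 250 bases before to 50 bases after a start), which were matched by symbol for 6 of the 10 genes, GCLC, GCLM, TXN, TXNRD1, SRXN1 and NFE2L2, with 8 windows in all. It was found in 3 windows of 2 genes, GCLM and TXNRD1, and in 13.3% of all 35116 promoter windows. The part of each of those windows nearest the start is shown beside that of GCLC, because GCLC and GCLM are subunits of 1 enzyme. Each stretch runs from 120 bases before to 10 bases after the start on the gene's strand, and capitals mark the core, which appears as its reverse complement where it lies on the other strand. GCLM is at chr1:93909421-93909550 (minus strand), the first TXNRD1 start at chr12:104215659-104215788 and the second at chr12:104286912-104287041 (both plus), and GCLC at chr6:53545092-53545221 (minus).
GCLM: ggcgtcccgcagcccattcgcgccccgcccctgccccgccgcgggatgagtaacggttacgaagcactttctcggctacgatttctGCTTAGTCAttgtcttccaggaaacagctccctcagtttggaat
TXNRD1, first start: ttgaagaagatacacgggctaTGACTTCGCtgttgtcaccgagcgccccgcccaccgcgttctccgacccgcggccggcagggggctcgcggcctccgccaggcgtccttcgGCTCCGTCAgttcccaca
TXNRD1, second start: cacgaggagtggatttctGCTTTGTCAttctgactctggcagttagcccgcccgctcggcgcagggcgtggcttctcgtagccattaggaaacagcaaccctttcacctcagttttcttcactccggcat
GCLC: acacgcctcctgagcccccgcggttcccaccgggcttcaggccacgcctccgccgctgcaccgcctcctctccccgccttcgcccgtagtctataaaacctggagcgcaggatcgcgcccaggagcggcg
The GCLM match lies 26 to 34 bases before the start, and the match at the second TXNRD1 start lies 94 to 102 bases before it. A match describes these letters only, and binding was not measured. Sequence outside the windows was not searched, so a window with no match does not mean that the gene lacks an element.

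The libraries held 18863863 to 36410888 expected counts. Of the astrocyte markers, VIM, CD44, SOX9 and SLC1A3 were present, whereas GFAP, S100B, AQP4 and ALDH1L1 did not exceed 0.418 CPM (counts scaled to a common library total, so comparable between libraries) in any library. COL1A1, a fibroblast collagen, had a median of 3255 CPM. Of the markers of other cell types, MOG, AIF1, CDH5 and EPCAM had a median of 0 CPM, but CD68 (leukocyte or microglia) had 156, SNAP25 and SYT1 (neuron) 33.6 and 28.1, KRT8 (epithelium) 17.2, PTPRC (leukocyte) 13.0 and MBP (oligodendrocyte) 7.21 CPM. Library 3 of Citri Unshius Pericarpium low and library 3 of Cimicifugae Rhizoma high stood apart, with root mean square deviations from their group means of 0.178 and 0.184 on the log2 scale against 0.11 to 0.147 in the other libraries, and with 7.37% and 7.70% of counts in mitochondrial genes. Calls among the 10 genes that they decide are given with and without them. Extracts were labelled in sets, Citri Unshius Pericarpium with Cimicifugae Rhizoma, Bupleuri Radix with Aconiti Lateralis Radix Preparata, and Yijung-tang with Banhasasim-tang, and the vehicle formed a set of its own, so a difference between sets and an effect of an extract cannot be told apart in comparisons with the vehicle. Comparisons of a high with a low dose, and of extracts of the same set, stay within a set. Comparisons with the vehicle all share the same 3 vehicle libraries.

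Per kilobase of annotated exon, vehicle cells held most PRDX1, at 273 ± 4.81 CPM/kb, then TXN, at 175 ± 4.34 CPM/kb (SD, n = 3). TXNRD1 followed at 47.0 ± 0.812 CPM/kb and SRXN1 at 33.9 ± 1.66 CPM/kb. GCLM at 17.7 ± 0.367 CPM/kb lay just above GSR at 16.8 ± 0.629 CPM/kb. SLC7A11 at 14.2 ± 0.361, GSS at 13.4 ± 0.455 and NFE2L2 at 12.5 ± 0.0966 CPM/kb came next. SLC7A11 and GSS were the only neighbours in this order whose 3 vehicle libraries overlapped. GCLC, the catalytic subunit, was the lowest of the 10 at 3.72 ± 0.068 CPM/kb. These levels divide by all annotated exon bases, so a gene with unused exons is understated.

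SLC7A11, TXNRD1 and SRXN1, which stand for cystine import, thioredoxin reduction and peroxiredoxin repair, were higher under the high dose of every replicated extract than under its low dose. High against low doses, which share no libraries between extracts, gave calls for these 3 genes in 6 of 6 extracts, where the share of all genes called higher ran from 1.92% in Bupleuri Radix to 30.4% in Aconiti Lateralis Radix Preparata, for GCLM and GSR in 5 of 6, and for GCLC in 3 of 6. GSS, TXN and NFE2L2 were higher in 1 of 6, and PRDX1 was higher in 1 and lower in 1. The SRXN1 call in Citri Unshius Pericarpium was lost without the 2 libraries that stood apart (0.0954, edgeR adjusted p = 0.0611) and with only the groups compared (edgeR adjusted p = 0.105), which leaves 5 of 6. Against the vehicle, SRXN1 in that extract's high dose was at 0.006 ± 0.036 (edgeR adjusted p = 0.929). Low-dose means of TXNRD1 ran from 281.5 CPM (Citri Unshius Pericarpium) to 302.6 CPM (Bupleuri Radix), under the vehicle's 315.4 CPM, with no call in the main fit. Its high against low values therefore exceed those against the vehicle, as in Citri Unshius Pericarpium (0.31 and 0.15). A call is an adjusted p under 0.05 by the quasi-likelihood test of edgeR, adjusted by Benjamini and Hochberg's method over all genes tested, and ± after a log2 fold change is its standard error.

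**Figure D1:**
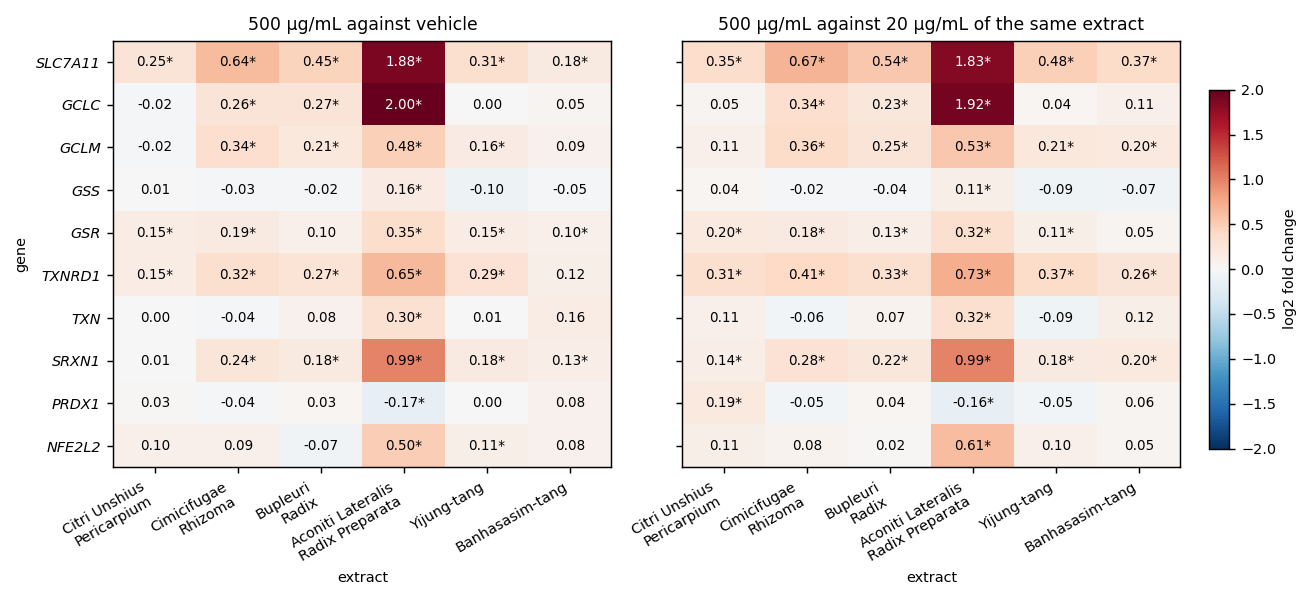
Log2 fold changes of the 10 genes (rows) for each replicated extract (columns), at 500 µg/mL against vehicle in the left panel and against 20 µg/mL of the same extract in the right panel, with an asterisk on called values. SLC7A11, TXNRD1 and SRXN1 are called in all 6 columns of the right panel, and the largest values are those of GCLC and SLC7A11 under Aconiti Lateralis Radix Preparata.

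**Figure D2:**
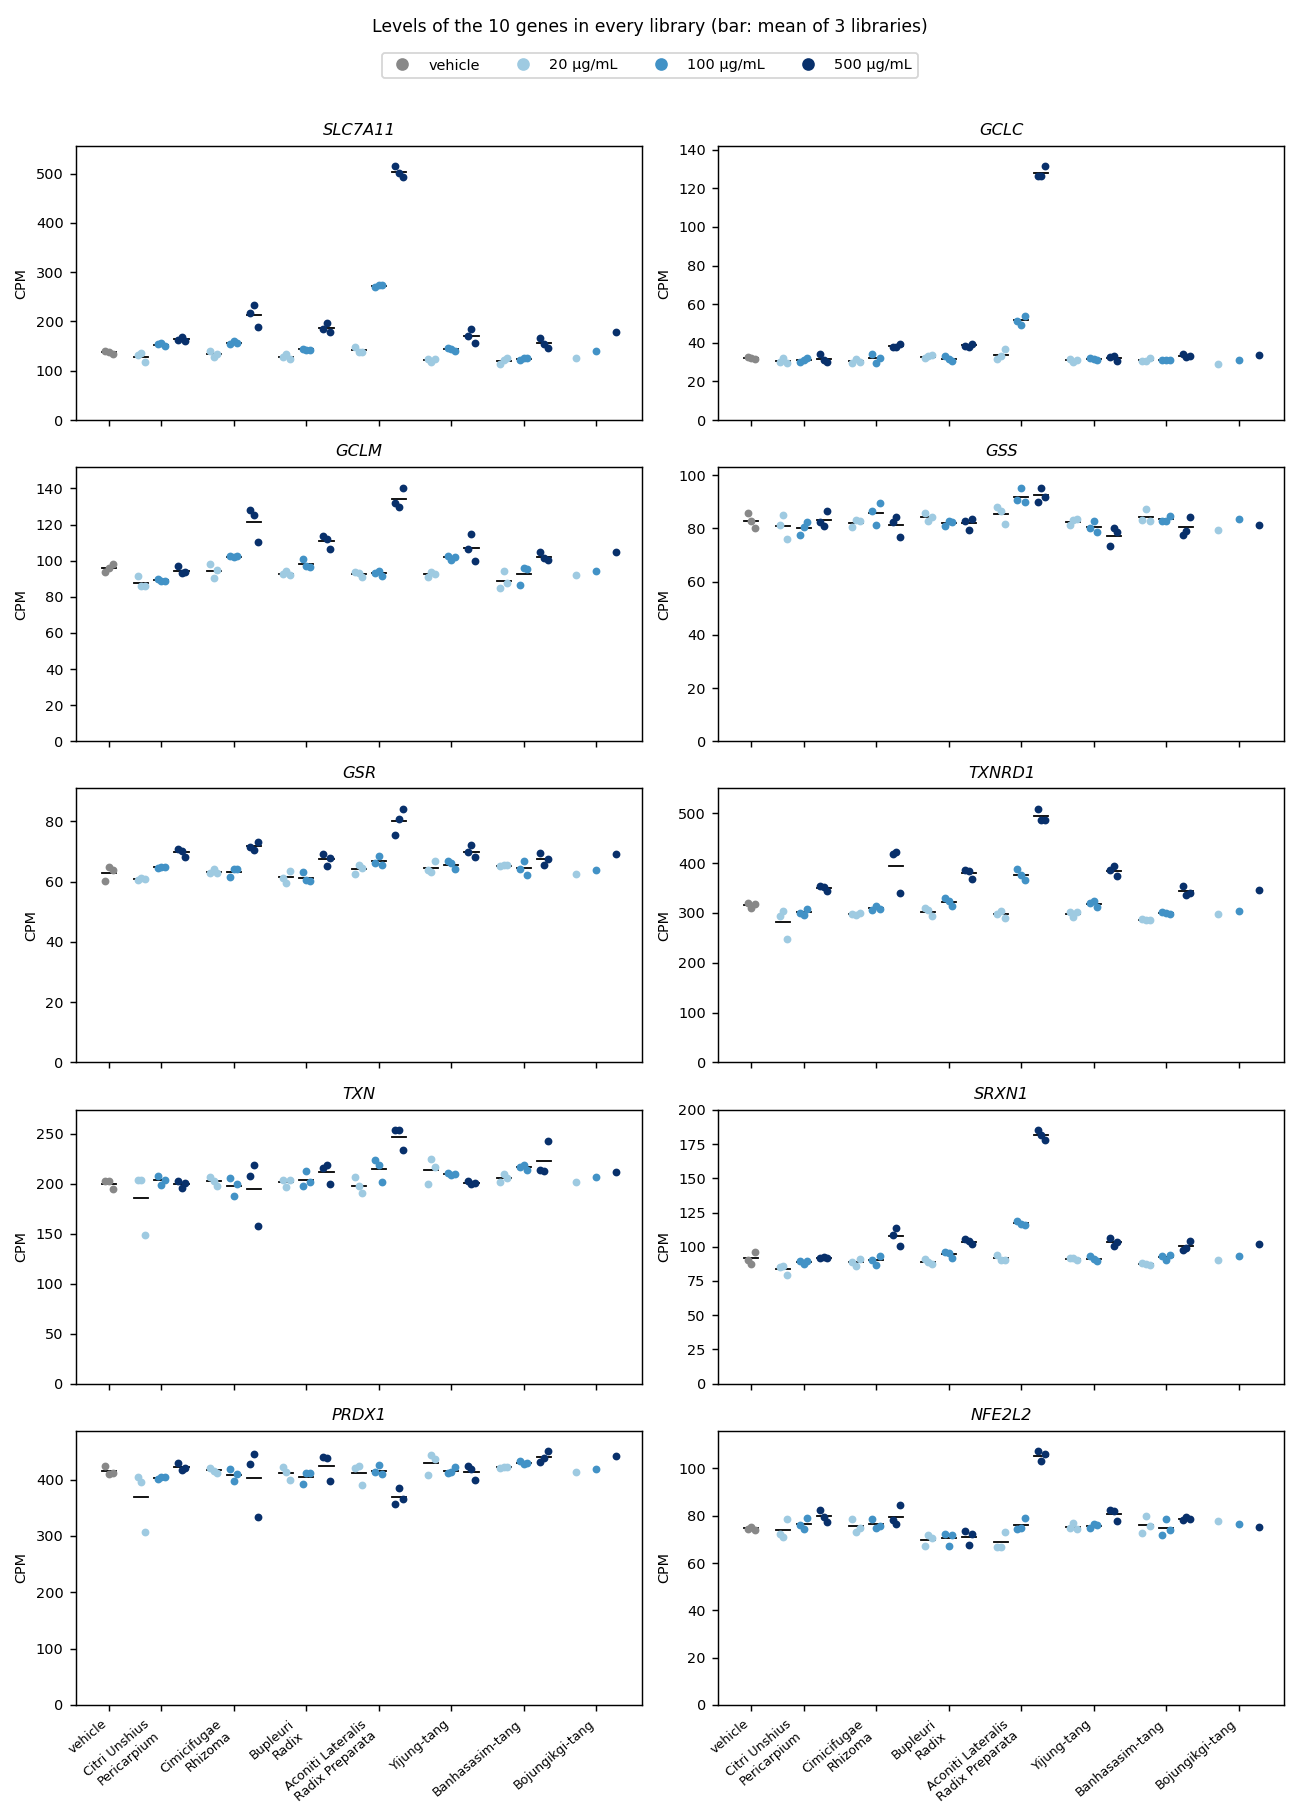
Level of each of the 10 genes in CPM (a panel each, y axis) in every library, with vehicle at the left and doses from low to high for each extract, and bars at group means. Aconiti Lateralis Radix Preparata at the high dose stands above all other libraries for GCLC, SLC7A11, TXNRD1, SRXN1 and NFE2L2, and by less for GCLM and GSR.

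SLC7A11 (ENSG00000151012, chr4:138164097-138242349 in GENCODE 29 on GRCh38), the cystine and glutamate exchanger, responded most widely. It had 515, 501 and 494 CPM in Aconiti Lateralis Radix Preparata high libraries, against 141, 137 and 134 CPM in vehicle libraries. The groups were far apart, and the log2 fold change was 1.88 ± 0.053 (edgeR adjusted p = 1.94e-33). Its mean was 137 CPM in vehicle and, under the same extract, 141 CPM at the low, 273 CPM at the medium and 503 CPM at the high dose. Cimicifugae Rhizoma high libraries had 218, 233 and 190 CPM, against 139, 127 and 135 CPM in its low libraries, and no library overlapped (0.67 ± 0.052, edgeR adjusted p = 2.29e-14). Bupleuri Radix high libraries had 186, 196 and 178 CPM, against 129, 134 and 124 CPM at the low dose (0.54 ± 0.053, edgeR adjusted p = 1.66e-10). The other high against low differences were 0.48 ± 0.053 for Yijung-tang, 0.37 ± 0.052 for Banhasasim-tang and 0.35 ± 0.053 for Citri Unshius Pericarpium, the smallest of the 6. Against the vehicle the same 3 extracts gave 0.31, 0.18 and 0.25, all called, and the Banhasasim-tang call was lost without its high library 1 (0.13, edgeR adjusted p = 0.126) or without vehicle 3 (0.165, edgeR adjusted p = 0.0577). At the medium dose calls appeared without the 2 libraries that stood apart, higher in Citri Unshius Pericarpium (0.161, edgeR adjusted p = 0.0298) and lower in Banhasasim-tang (-0.137, edgeR adjusted p = 0.034).

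At low doses SLC7A11 lay a little under the vehicle in the formula set. Yijung-tang low libraries had 124, 118 and 124 CPM and Banhasasim-tang low libraries 114, 122 and 125 CPM, against 134 to 141 CPM in vehicle, with no overlap. The log2 fold changes were -0.17 ± 0.053 (edgeR adjusted p = 0.0498) and -0.19 ± 0.053 (edgeR adjusted p = 0.0264), each the only call among the 10 genes where 3.65% and 3.14% of all genes were called lower. The Yijung-tang count was 0 in each fit that left out 1 of its low libraries or 1 vehicle library, and the Banhasasim-tang count was 0 or 1. SLC7A11-AS1 lies over the gene on the other strand with a mean of 53.7 counts against 4054 for SLC7A11, and in Aconiti Lateralis Radix Preparata high against vehicle its own log2 fold change was 2.32 ± 0.14. No source used here gives the strand setting of the counting, so reads of the pair may not have been separated.

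GCLC (ENSG00000001084, chr6:53497341-53616970), the catalytic subunit of glutamate-cysteine ligase, rose most of the 10 under Aconiti Lateralis Radix Preparata and little elsewhere. It had 127, 126 and 131 CPM in high-dose libraries, against 32.7, 32.1 and 31.5 CPM in vehicle libraries, a log2 fold change of 2.00 ± 0.045 (edgeR adjusted p = 1.53e-37). Its medium-dose libraries, at 51.4, 49.4 and 53.9 CPM, also lay above every vehicle library (0.68 ± 0.047, edgeR adjusted p = 7.29e-17), and its low-dose libraries, at 31.9 to 36.5 CPM, overlapped them. Cimicifugae Rhizoma high libraries had 37.9 to 39.3 CPM, against 29.6 to 31.5 CPM at the low dose, and Bupleuri Radix high libraries had 37.9 to 39.6 CPM, against 32.1 to 33.4 CPM at the low dose. Those differences were 0.34 ± 0.047 and 0.23 ± 0.047 and were called. In Citri Unshius Pericarpium, Yijung-tang and Banhasasim-tang the high against low values were 0.05, 0.04 and 0.11 and did not pass the test.

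GCLM (ENSG00000023909, chr1:93885205-93909456), the modifier subunit that makes the enzyme work at cellular substrate levels, had 132, 130 and 141 CPM in Aconiti Lateralis Radix Preparata high libraries, against 94.0, 95.7 and 97.9 CPM in vehicle libraries. The libraries did not overlap, and the log2 fold change was 0.48 ± 0.044 (edgeR adjusted p = 1.37e-13), much smaller than that of its partner. Medium-dose libraries had GCLM at 91.4 to 94.5 CPM, with a value of -0.04 ± 0.045 that did not pass the test. Cimicifugae Rhizoma high libraries reached 128, 125 and 110 CPM, against 98.3, 90.3 and 94.7 CPM at the low dose, a difference of 0.36 ± 0.044 (edgeR adjusted p = 1.03e-08). Bupleuri Radix (0.25), Yijung-tang (0.21) and Banhasasim-tang (0.20) were called for high against low as well, and Citri Unshius Pericarpium was not (0.11 ± 0.045, edgeR adjusted p = 0.0893). Against the vehicle the Yijung-tang call (0.16) was lost without its high library 2 (0.11, edgeR adjusted p = 0.0726).

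The ratio of the subunits' transcripts was therefore followed in each library, from CPM not divided by length, so that only its change can be read. GCLC over GCLM was 0.959, 0.975 and 0.935 in Aconiti Lateralis Radix Preparata high libraries, against 0.348, 0.336 and 0.322 in vehicle libraries. Its medium-dose libraries had 0.552, 0.523 and 0.590 and its low-dose libraries 0.340, 0.357 and 0.403. High and medium libraries were above every vehicle library, and the log2 differences were 1.51 and 0.73 (2-sided exact permutation p = 0.1 each, the smallest that 3 against 3 libraries can give). Yijung-tang high libraries had a ratio of 0.308, 0.287 and 0.305, below all 3 vehicle libraries, with a log2 difference of -0.16 (exact permutation p = 0.1) and -0.16 against its low dose (exact permutation p = 0.1). Yijung-tang medium libraries, at 0.311, 0.317 and 0.304, were below all 3 vehicle libraries too, with a log2 difference of -0.11 (exact permutation p = 0.1). High-dose libraries of the other 4 replicated extracts overlapped the vehicle. These are 18 comparisons, so none passes adjustment.

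**Figure D3:**
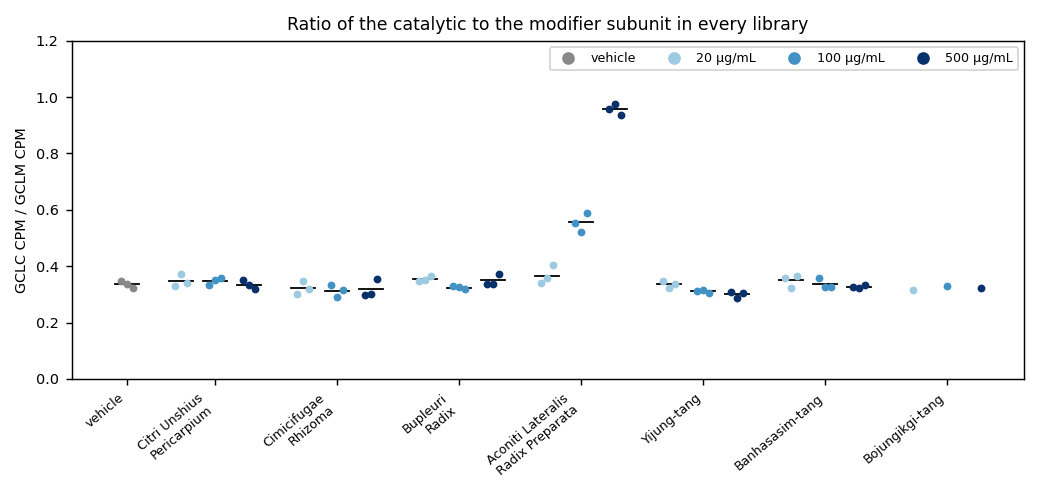
Ratio of GCLC to GCLM CPM (y axis, from 0) in every library, with vehicle at the left, doses coloured from low to high and bars at group means. Aconiti Lateralis Radix Preparata libraries sit at 0.935 to 0.975 at the high dose and 0.523 to 0.590 at the medium dose, against 0.322 to 0.348 in vehicle libraries.

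GSS (ENSG00000100983, chr20:34928433-34956027), which completes glutathione, had 90.15, 95.4 and 92.03 CPM in Aconiti Lateralis Radix Preparata high libraries, against 85.7, 82.9 and 80.1 CPM in vehicle libraries, and the groups did not overlap (0.16 ± 0.041, edgeR adjusted p = 0.00064). The medium dose gave much the same, 0.15 ± 0.041 (edgeR adjusted p = 0.00299). High against low for that extract was 0.11 ± 0.041 and the call was lost without high library 2, high library 3 or low library 3 (0.0920, 0.103 and 0.0786, edgeR adjusted p = 0.0865, 0.0557 and 0.134). In the other 5 extracts high against low values ran between -0.09 and 0.04, with no call. The lowest was that of Yijung-tang, whose high libraries, at 73.4, 80.0 and 78.7 CPM, were all below its low libraries, at 81.2, 83.1 and 83.6 CPM, and below all vehicle libraries. Without the 2 libraries that stood apart GSS was called lower there, with values of -0.095 against the low dose (edgeR adjusted p = 0.0493) and -0.0956 against the vehicle (edgeR adjusted p = 0.0426, against 0.0635 with them). Leaving out vehicle 3 or Yijung-tang high library 2 also gave a call against the vehicle (edgeR adjusted p = 0.0397 and 0.0427).

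GSR (ENSG00000104687, chr8:30678061-30727999), glutathione reductase, had 75.5, 80.8 and 84.2 CPM in Aconiti Lateralis Radix Preparata high libraries, against 60.3, 64.8 and 63.8 CPM in vehicle libraries. All 3 were higher than any vehicle library, with a log2 fold change of 0.35 ± 0.036 (edgeR adjusted p = 3.98e-12). Citri Unshius Pericarpium high libraries had 70.9, 70.3 and 68.3 CPM, against 60.7, 61.3 and 60.8 CPM at its low dose (0.20 ± 0.035, edgeR adjusted p = 4.71e-05), which was larger than the value for Cimicifugae Rhizoma (0.18 ± 0.035) by less than their errors. Bupleuri Radix (0.13) and Yijung-tang (0.11) were called for high against low, and Banhasasim-tang was not (0.05). The first of these calls ended without high library 1 or 3 or low library 1 or 2 (edgeR adjusted p = 0.0641 to 0.155), and the second without high library 2 or low library 1 or 2 (edgeR adjusted p = 0.0643 to 0.0915). Both ended with no filter (edgeR adjusted p = 0.16 and 0.223), and the second with only the groups compared (edgeR adjusted p = 0.112). The Banhasasim-tang call against the vehicle (0.10 ± 0.035, edgeR adjusted p = 0.0431) was lost in DESeq2 (adjusted p = 0.0648), with no filter (edgeR adjusted p = 0.182) and with only the groups compared (edgeR adjusted p = 0.0899). It was also lost without vehicle 1 (0.0727, edgeR adjusted p = 0.256), vehicle 3, high library 1 or high library 3 (edgeR adjusted p = 0.0592 to 0.19).

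TXNRD1 (ENSG00000198431, chr12:104215779-104350305), the selenoenzyme that reduces thioredoxin, had 509, 486 and 487 CPM in Aconiti Lateralis Radix Preparata high libraries, against 319, 309 and 318 CPM in vehicle libraries. The gap between the groups was wide, and the log2 fold change was 0.65 ± 0.048 (edgeR adjusted p = 8.07e-17). Cimicifugae Rhizoma high libraries had 419, 423 and 341 CPM, against 297, 297 and 299 CPM at its low dose, and the lowest of the 3 was the library that stood apart (0.41 ± 0.048, edgeR adjusted p = 4.25e-09). Yijung-tang high libraries had 386, 395 and 374 CPM, against 302, 291 and 301 CPM at its low dose (0.37 ± 0.047, edgeR adjusted p = 4.27e-08). Bupleuri Radix gave 0.33, Citri Unshius Pericarpium 0.31 and Banhasasim-tang 0.26, all called. Against the vehicle Banhasasim-tang gave 0.12 ± 0.048 (edgeR adjusted p = 0.0662), although its libraries, at 336 to 355 CPM, were all above vehicle, and it was called in DESeq2 (adjusted p = 0.0443), with no filter (0.00967), with the replicate block (0.0359), without the 2 libraries that stood apart (0.000404) and with only the groups compared (0.00636), all 4 edgeR adjusted p. Without those 2 libraries its low dose was called lower as well (-0.138, edgeR adjusted p = 0.000541, against 0.0689 with them). The value for Citri Unshius Pericarpium against the vehicle was 0.15 and was not called without vehicle 2 (0.14, edgeR adjusted p = 0.0679) or without its high library 1 (0.14, edgeR adjusted p = 0.0586). RPL18AP3, a pseudogene inside TXNRD1, had a mean of 168 counts against 7982 for TXNRD1.

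SRXN1 (ENSG00000271303, chr20:646615-653370), which repairs overoxidised peroxiredoxins, had 185, 182 and 178 CPM in Aconiti Lateralis Radix Preparata high libraries, against 90.6, 87.5 and 96.4 CPM in vehicle libraries. Every high library lay far above the vehicle, and the log2 fold change was 0.99 ± 0.035 (edgeR adjusted p = 3.83e-29). Its medium-dose libraries, at 116 to 119 CPM, were also apart from vehicle (0.36 ± 0.036, edgeR adjusted p = 2.39e-11). Cimicifugae Rhizoma high libraries had 109, 114 and 101 CPM, against 88.8, 85.9 and 90.9 CPM at its low dose (0.28 ± 0.036). Bupleuri Radix gave 0.22, Banhasasim-tang 0.20, Yijung-tang 0.18 and Citri Unshius Pericarpium 0.14 for high against low. Without Citri Unshius Pericarpium low library 3, one of the pair that stood apart, the last was 0.0954 (edgeR adjusted p = 0.102). Against the vehicle the Banhasasim-tang call (0.13 ± 0.036) was lost without vehicle 2 (0.105, edgeR adjusted p = 0.0702) or without its high library 3 (0.109, edgeR adjusted p = 0.052).

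TXN (ENSG00000136810, chr9:110243811-110256640) and PRDX1 (ENSG00000117450, chr1:45511036-45523047), thioredoxin and its peroxidase client, were the most abundant of the 10 per kilobase of exon in vehicle cells. TXN had 254, 254 and 234 CPM in Aconiti Lateralis Radix Preparata high libraries, against 203, 203 and 195 CPM in vehicle libraries, with no overlap (0.30 ± 0.074, edgeR adjusted p = 0.000388). PRDX1 had 357, 386 and 366 CPM in the same high libraries, against 424, 411 and 411 CPM in vehicle libraries, and was the one gene of the 10 that fell (-0.17 ± 0.062, edgeR adjusted p = 0.0179). That call was lost without vehicle 1 (-0.156, edgeR adjusted p = 0.0524) or without high library 1 (-0.142, edgeR adjusted p = 0.0783). MMACHC, over PRDX1 on the other strand with a mean of 490.5 counts against 9965, fell by 0.32 in the same comparison. In the 2 libraries that stood apart both genes were low: TXN had 149 CPM in Citri Unshius Pericarpium low library 3 and 158 CPM in Cimicifugae Rhizoma high library 3, against 188 to 219 CPM in the other libraries of those extracts. PRDX1 had 308 and 334 CPM there, against 397 to 446 CPM in those others. The PRDX1 call in Citri Unshius Pericarpium high against low (0.19 ± 0.062, edgeR adjusted p = 0.0227) was lost without that low library (0.07, edgeR adjusted p = 0.463). No other replicated extract gave a TXN or PRDX1 call at the high dose, with TXN values against the vehicle between -0.04 and 0.16. The highest was that of Banhasasim-tang, whose high libraries had TXN at 214, 213 and 243 CPM and PRDX1 at 432, 439 and 451 CPM, all above vehicle. Its TXN value of 0.16 ± 0.074 (edgeR adjusted p = 0.151) was called with no filter (0.00108), without the 2 libraries that stood apart (0.00582) and with only the groups compared (0.016), all edgeR adjusted p. Its PRDX1 value of 0.08 ± 0.062 was called with only the groups compared (edgeR adjusted p = 0.0404). The 7 named pseudogenes of TXN and the 1 of PRDX1 had summed means of 0.4 and 0.3 counts.

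NFE2L2 (ENSG00000116044, chr2:177227595-177392697), the NRF2 gene itself, had 107, 103 and 106 CPM in Aconiti Lateralis Radix Preparata high libraries, against 74.5, 75.3 and 74.1 CPM in vehicle libraries. The groups were clearly apart, with a log2 fold change of 0.50 ± 0.042 (edgeR adjusted p = 1.33e-14). Its medium-dose value was 0.03 ± 0.043 and not called, although SLC7A11, GCLC, SRXN1, TXNRD1 and GSS were. Yijung-tang high libraries had 82.4, 82.0 and 77.8 CPM, all above vehicle, and the call (0.11 ± 0.043, edgeR adjusted p = 0.0379) was lost when only those 2 groups were fitted (edgeR adjusted p = 0.0641) and with no filter (edgeR adjusted p = 0.124). Leaving out any 1 vehicle library also ended it (edgeR adjusted p = 0.0656 to 0.0945), as did leaving out high library 1 or 2. In Citri Unshius Pericarpium high against low, a value of 0.11 with no call became 0.15 (edgeR adjusted p = 0.0212) without low library 3. High doses of Citri Unshius Pericarpium and Cimicifugae Rhizoma against the vehicle gave 0.10 and 0.09 with no call, and Bupleuri Radix gave -0.07. The first was called with only the groups compared (edgeR adjusted p = 0.0358), and the second without its high library 2 (edgeR adjusted p = 0.0367). NFE2L2 overlaps AGPS on the other strand, whose mean of 2451 counts exceeds the 1847 of NFE2L2. AGPS moved the other way, by -0.30 ± 0.049 in Aconiti Lateralis Radix Preparata high and by -0.43 ± 0.049 in Yijung-tang high.

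Aconiti Lateralis Radix Preparata at the high dose changed all 10 genes, 9 higher and 1 lower, in a comparison in which 60.4% of all genes tested were called, 31.5% higher and 28.9% lower. The median of the 10 was 0.49, beside 0.01 over all genes. At the medium dose 5 of 10 were called, all higher, where 16.1% of genes were called higher. At the low dose none of the 10 was called by edgeR or DESeq2 and 1, NFE2L2, had an unadjusted p under 0.05, where 2.19% of genes were called. High against low gave 9 higher and 1 lower, where 57.8% of genes were called, 30.4% higher and 27.4% lower. Each fit that left out 1 of these high or low libraries called 9 of the 10, with GSS or PRDX1 lost. The PRDX1 call was lost without high library 1, low library 1 or low library 2 (-0.133, -0.146 and -0.142, edgeR adjusted p = 0.106, 0.0705 and 0.0788). The order by size also changed with dose: SLC7A11 led at the medium dose (0.99) and GCLC came second (0.68), while at the high dose GCLC led (2.00) and SLC7A11 followed (1.88). Mitochondrial genes took 8.995% to 9.29% of counts in high, 10.6% to 10.8% in medium and 6.45% to 7.56% in low libraries, against 5.03% to 5.29% in vehicle libraries. All 3 fibroblast markers summed to 1282 to 1389 CPM in high libraries, against 5537 to 5802 CPM in vehicle libraries, and the 9 astrocyte markers to 6972 to 7012 CPM, against 7118 to 7488 CPM in vehicle libraries. Sums over the 3 neuron, 3 oligodendrocyte and 3 leukocyte or microglia markers were 45.5 to 48.5, 12.7 to 13.0 and 180 to 191 CPM in high libraries, against 64.7 to 68.0, 6.61 to 8.14 and 152 to 160 CPM in vehicle libraries. The part of these differences in the 10 genes' values was not tested. All libraries are of 1 line, so these sums do not count cell types. Fewer cells of the line holding a transcript and less of it per cell cannot be told apart in bulk RNA.

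**Figure D4:**
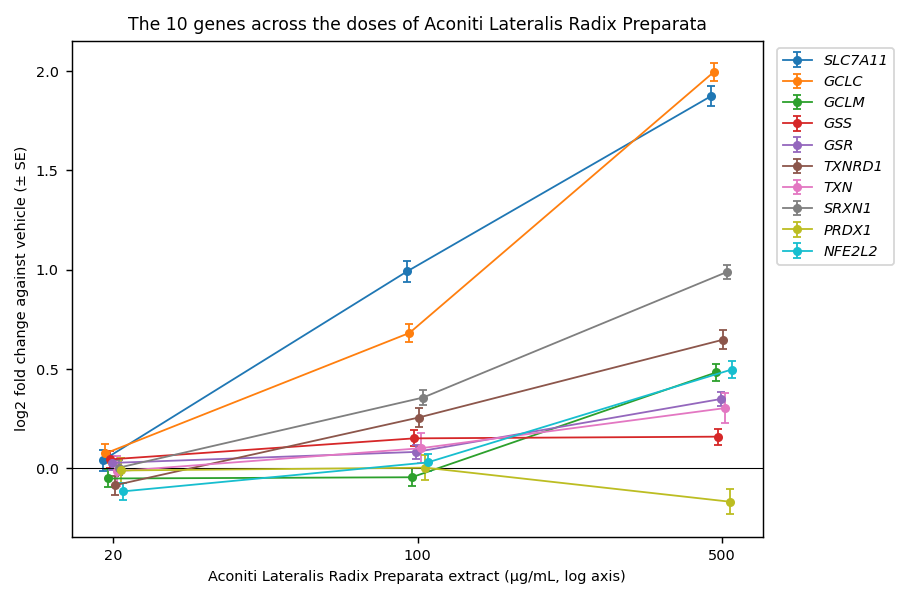
Fitted log2 fold change against vehicle (y axis, bars are SE) at each dose of Aconiti Lateralis Radix Preparata (x axis, µg/mL, log axis), with a line per gene and points shifted sideways for legibility. GCLC and SLC7A11 stand at 0.68 and 0.99 at the medium and 2.00 and 1.88 at the high dose, and PRDX1 at -0.17 at the high dose.

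Bupleuri Radix, from the same set, had 5 of 10 genes higher at the high dose, SLC7A11, TXNRD1, GCLC, GCLM and SRXN1, where 3.01% of all genes were called higher. High against low added GSR for 6 of 10, where 1.92% were, the lowest such shares among the high doses. At the medium dose none of the 10 was called by edgeR or DESeq2 or had an unadjusted p under 0.05, and at the low dose none was called by either tool and 1 had such a p, with 0.413% and 0.0756% of genes called. At the high dose Aconiti Lateralis Radix Preparata exceeded Bupleuri Radix in 9 of 10 genes and lay below it in PRDX1, where 58.3% of genes were called, 30.3% higher and 28% lower. The rise from low to high dose was larger in Aconiti Lateralis Radix Preparata for 8 of 10 genes, all but TXN and PRDX1, where 22.9% of genes were called so. Without the 2 libraries that stood apart those were called too, TXN at 0.235 and PRDX1 at -0.212 (edgeR adjusted p = 0.0011 and 0.00016). The difference of rises was 1.69 ± 0.065 for GCLC and 1.296 ± 0.074 for SLC7A11, but 0.28 ± 0.063 for GCLM (edgeR adjusted p = 0.000215). In Bupleuri Radix high libraries the fibroblast sum was 4765 to 5093 CPM, against 5537 to 5802 CPM in vehicle libraries. The neuron sum was 53.9 to 55.3 CPM, against 64.7 to 68.0 CPM, and the part of these in the 10 genes' values was not tested.

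Cimicifugae Rhizoma had 6 of 10 genes higher at the high dose against vehicle, SLC7A11, GCLM, TXNRD1, GCLC, SRXN1 and GSR, where 15.1% of genes were called higher, and the same 6 against its low dose, where 11.7% were. The 3 leukocyte or microglia markers, mostly CD68, summed to 187 to 241 CPM in its high libraries, against 152 to 160 CPM in vehicle libraries. The astrocyte sum was 6320 to 6771 CPM, against 7118 to 7488 CPM in vehicle, the fibroblast sum 4989 to 5255 CPM, against 5537 to 5802 CPM, the neuron sum 55.5 to 60.2 CPM, against 64.7 to 68.0 CPM, and the epithelium sum 14.7 to 15.6 CPM, against 19.2 to 19.8 CPM. Their part in these values was not tested. Under its medium dose SLC7A11 alone was called (0.19 ± 0.053, edgeR adjusted p = 0.017), where 2.72% of genes were called higher, and at the low dose none was called by edgeR or DESeq2 or had an unadjusted p under 0.05, where 1.27% of genes were called. Citri Unshius Pericarpium had 3 of 10 higher at the high dose, SLC7A11, TXNRD1 and GSR, where 9.82% of genes were called higher, and 5 of 10 against its low dose, where 8.19% were. At the medium dose none was called by edgeR or DESeq2 and 2 had an unadjusted p under 0.05, where 2.07% of genes were called. At the low dose SRXN1 was called lower, where 0.721% of genes were, and without the 2 libraries that stood apart none was. Set directly against each other at the high dose, Cimicifugae Rhizoma was higher in 5 of 10 genes, where 5.76% of all genes were called higher: SLC7A11 by 0.38 ± 0.052, GCLM by 0.36 ± 0.044, GCLC by 0.28 ± 0.047, SRXN1 by 0.23 ± 0.035 and TXNRD1 by 0.17 ± 0.047. GSR, by contrast, was at 71.4, 70.4 and 73.3 CPM in Cimicifugae Rhizoma high libraries, against 70.9, 70.3 and 68.3 CPM in Citri Unshius Pericarpium high libraries, and the difference of 0.04 ± 0.035 did not pass the test. The rise from low to high was larger in Cimicifugae Rhizoma for SLC7A11 (0.32 ± 0.075), GCLC (0.28 ± 0.068) and GCLM (0.25 ± 0.063), where 5.58% of genes were called so. Without the 2 libraries that stood apart, 5 genes were called, and with only those 4 groups fitted, none was. Citri Unshius Pericarpium high libraries had an astrocyte sum of 6756 to 6855 CPM, against 7118 to 7488 CPM in vehicle libraries. Their fibroblast sum was 5120 to 5326 CPM, against 5537 to 5802 CPM, and the part of these in the 10 genes' values was not tested.

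Yijung-tang had 6 of 10 genes higher at the high dose, SLC7A11, TXNRD1, SRXN1, GCLM, GSR and NFE2L2, where 15.3% of all genes were called higher, and 5 of 10 against its low dose, where 10.2% were. Banhasasim-tang had 3 of 10 higher, SLC7A11, SRXN1 and GSR, where 7.99% were called higher, and 4 of 10 against its low dose, SLC7A11, TXNRD1, GCLM and SRXN1, where 3.08% were. Mitochondrial genes took 5.94% to 8.21% of counts in Yijung-tang high and 6.02% to 6.91% in Banhasasim-tang high libraries, against 5.03% to 5.29% in vehicle libraries. The fibroblast sum was 4377 to 5026 CPM in Yijung-tang high and 4493 to 4601 CPM in Banhasasim-tang high libraries, against 5537 to 5802 CPM in vehicle libraries, and the leukocyte or microglia sum 161 to 176 and 185 to 188 CPM, against 152 to 160 CPM. The epithelium sum was 16.6 to 19.7 and 12.5 to 12.9 CPM in the same 2 groups, against 19.2 to 19.8 CPM in vehicle libraries, and the part of these in the 10 genes' values was not tested. At their medium doses none of the 10 was called by edgeR or DESeq2, with an unadjusted p under 0.05 for 0 genes in Yijung-tang and for 1 in Banhasasim-tang, where 6.28% and 8.32% of genes were called. At the high dose TXNRD1 was higher in Yijung-tang than in Banhasasim-tang, at 386, 395 and 374 CPM against 355, 336 and 340 CPM, with no overlap (0.16 ± 0.047, edgeR adjusted p = 0.00781), where 11.1% of genes were called higher. It was the only one of the 10, and without the 2 libraries that stood apart SLC7A11 was called higher too (0.13, edgeR adjusted p = 0.0166) and TXN and PRDX1 lower (-0.15 and -0.09, edgeR adjusted p = 0.00601 and 0.0353). The rise from low to high dose differed in none of the 10 by edgeR or DESeq2, nor at an unadjusted p under 0.05, where 10.1% of genes were called. The SLC7A11 difference was 0.11 ± 0.074 and the TXN difference -0.20 ± 0.103, which was called without the 2 libraries that stood apart (edgeR adjusted p = 0.0148).

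Bojungikgi-tang has no replicate check. At the high dose 9 of 10 genes lay above all 3 vehicle libraries, where 31.6% of all genes tested did, 30.5% lay below and 37.9% inside, and GSS was inside their range. SLC7A11 was at 179 CPM, against 134 to 141 CPM in vehicle libraries, TXNRD1 at 346 CPM, against 309 to 319 CPM, and SRXN1 at 102 CPM, against 87.5 to 96.4 CPM. GCLC, at 33.9 CPM, was just above the vehicle's 31.5 to 32.7 CPM, and NFE2L2, at 75.4 CPM, just above 74.1 to 75.3 CPM. At the medium dose 2 genes were above, 2 below and 6 inside the vehicle range, beside 29%, 28.7% and 42.3% of all genes. At the low dose 1 was above, 5 below and 4 inside, beside 28.6%, 28.5% and 42.9% of all genes. These libraries carry another set label than the vehicle, so a difference between sets and an effect of the formula cannot be told apart.

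**Figure D5:**
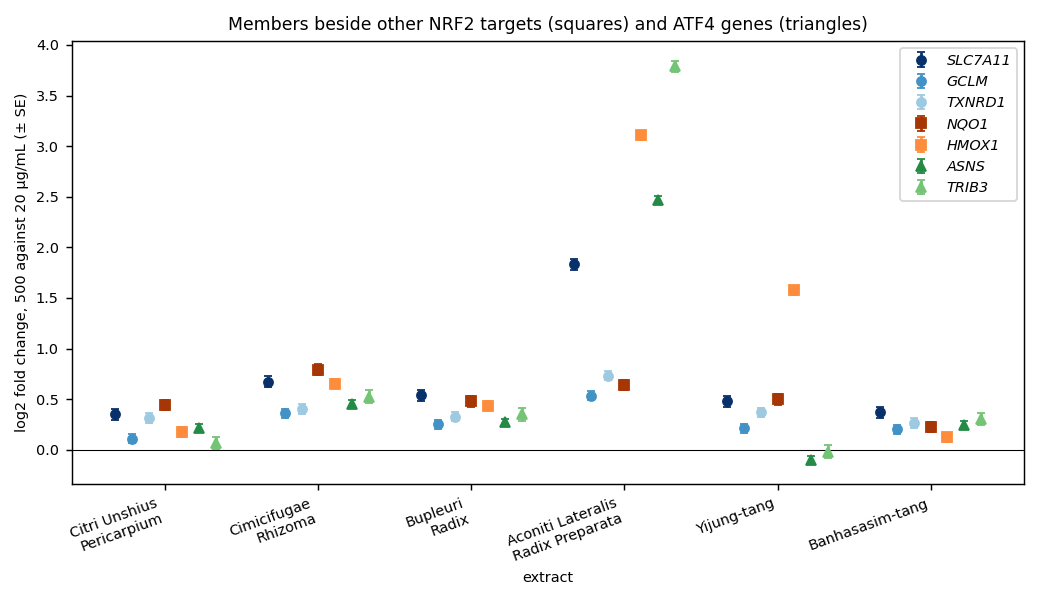
Log2 fold change at 500 against 20 µg/mL (y axis, bars are SE) for each replicated extract (x axis), with circles for SLC7A11, GCLM and TXNRD1, squares for NQO1 and HMOX1 of the other NRF2 targets, and triangles for ASNS and TRIB3 of the ATF4 genes. Under Aconiti Lateralis Radix Preparata TRIB3 reaches 3.79 and HMOX1 3.11, and under Yijung-tang HMOX1 reaches 1.58 with ASNS at -0.10.

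The other genes of the pathway were counted in the same fit at the high dose against vehicle, where the shares of all genes called higher and lower were 15.1% and 17.5% for Cimicifugae Rhizoma, 31.5% and 28.9% for Aconiti Lateralis Radix Preparata, and 15.3% and 16.7% for Yijung-tang. They were 3.01% and 4.01% for Bupleuri Radix, 9.82% and 11.8% for Citri Unshius Pericarpium, and 7.99% and 8.82% for Banhasasim-tang. Of 23 other NRF2 targets, 19 were higher and 2 lower under Cimicifugae Rhizoma, with a median of 0.37. FTL, the ferritin light chain, rose by 0.89 ± 0.052, NQO1, a quinone reductase, by 0.87 ± 0.052, and AKR1B10, an aldo-keto reductase, by 0.80 ± 0.096. Under Aconiti Lateralis Radix Preparata 15 of these 23 were higher and 4 lower (median 0.27). There HMOX1, haem oxygenase, rose by 3.41 ± 0.045 and FTL by 1.54 ± 0.053, NQO1 by 0.64 ± 0.052, while AKR1B10 fell by 0.75. Yijung-tang had 14 higher and 2 lower (median 0.28), with HMOX1 up by 1.87 ± 0.045. Bupleuri Radix had 10 higher and 1 lower, Citri Unshius Pericarpium 8 and 2, and Banhasasim-tang 7 and 5 (median 0.00). The medians over all genes were 0.00 to 0.01 throughout.

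Of the genes that control NRF2, 9 of the 10 listed were tested. Under Aconiti Lateralis Radix Preparata, where 60.4% of all genes were called, 6 rose and 3 fell: MAFF and MAFG, small MAF partners, rose by 2.06 ± 0.065 and 1.43 ± 0.046, and SQSTM1, which draws KEAP1 into autophagy, by 1.98 ± 0.037. KEAP1 fell by 0.13 (edgeR adjusted p = 0.0448) there, by 0.24 under Yijung-tang and by 0.19 (edgeR adjusted p = 0.0136) under Banhasasim-tang, and the other 3 extracts gave values of -0.04 to -0.10 with no call. SQSTM1 rose by 0.48 ± 0.037 under Banhasasim-tang, by 0.34 ± 0.037 under Cimicifugae Rhizoma and by 0.28 ± 0.037 under Bupleuri Radix, fell by 0.25 under Yijung-tang, and was at -0.01 with no call under Citri Unshius Pericarpium.

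Of 23 tested genes that use glutathione, among them peroxidases, transferases and glutaredoxins, 4 were higher and 9 lower under Aconiti Lateralis Radix Preparata, with a median of -0.09, and the number called is near the 60.4% of all genes called there. MGST2 fell by 1.17, GSTM2 by 0.69 and GSTM1 by 0.61, and the GSTM genes are close paralogs whose reads may be shared between them. Cimicifugae Rhizoma had 7 higher and 4 lower, with GSTM2 up by 0.46 ± 0.088. Of 12 genes of glutathione turnover and precursor supply, 6 rose and 3 fell under Aconiti Lateralis Radix Preparata, beside 31.5% and 28.9% of all genes. CHAC1, which degrades glutathione, rose by 2.95 ± 0.10, CBS and CTH, which make cysteine from homocysteine, by 2.71 ± 0.14 and 2.51 ± 0.071, and SLC3A2, the partner chain of SLC7A11, by 1.47 ± 0.051. SLC3A2 had values of -0.004 under Cimicifugae Rhizoma and -0.09 under Yijung-tang, with no call in either, and SLC7A11 was called in both.

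Of 18 other thioredoxin genes, 4 rose and 9 fell under Aconiti Lateralis Radix Preparata, beside 31.5% and 28.9% of all genes. SESN2, a stress-induced sestrin, rose by 2.75 ± 0.054, while SESN3 fell by 0.87 and MSRB1, a methionine sulfoxide reductase, by 0.54. TXNIP, which binds and inhibits thioredoxin, rose by 4.63 ± 0.074 under Yijung-tang, by 4.37 ± 0.075 under Citri Unshius Pericarpium, by 2.82 ± 0.078 under Cimicifugae Rhizoma and by 0.54 ± 0.092 under Banhasasim-tang, and fell by 0.38 (edgeR adjusted p = 0.00233) under Aconiti Lateralis Radix Preparata. Against the low dose of that extract, TXNIP was 0.64 ± 0.13 higher. ATF4 is a stress-induced transcription factor known also to drive SLC7A11, CHAC1 and SESN2. All 8 listed ATF4 genes rose under Aconiti Lateralis Radix Preparata, with a median of 2.05: TRIB3 by 4.32 ± 0.056, DDIT3 by 3.92 ± 0.083 and ASNS by 2.89 ± 0.036. Cimicifugae Rhizoma and Banhasasim-tang each had 5 of 8 higher, with medians of 0.19 and 0.20, Bupleuri Radix 4 and Citri Unshius Pericarpium 1 higher and 1 lower. Yijung-tang had none higher and 2 lower (median -0.07), while SLC7A11 was called higher in it.

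Correlations of the 10 genes over group means are given as a description. Points that share a set label may not be independent, and 1 extract carried the largest values. Over the 16 groups without Aconiti Lateralis Radix Preparata, Pearson's r of log2 CPM was 0.93 for TXNRD1 with SRXN1, 0.90 for TXNRD1 with SLC7A11, 0.90 for GCLM with SRXN1 and 0.83 for GCLC with GCLM. TXN with PRDX1 gave 0.89, and both were low in the 2 libraries that stood apart, while their values with TXNRD1 were 0.07 and 0.21. GSS had values of -0.45 with TXNRD1 and -0.36 with SLC7A11, and NFE2L2 had 0.74 with GSR, its highest among the 10, 0.39 with SLC7A11, 0.38 with TXNRD1, 0.27 with GCLM and -0.04 with GCLC. Among 9836 other genes of at least 10 CPM, those most like GCLM over all 19 groups were ARRDC1 (r = 0.88), PGD (0.88) and TUT7 (0.86), and those most like TXNRD1 were KLHL36 (0.93), TALDO1 (0.93) and ADCK2 (0.92). PGD and TALDO1 are enzymes of the pentose phosphate pathway, and PGD is one of its NADPH-producing steps. SLC7A11 was closest to BLTP3A (0.98), RHBDD1 (0.97) and APOL6 (0.96), and NFE2L2 to ZSWIM8 (0.96), C5orf22 (0.96) and ATG13 (0.96).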

How the data were processed

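RNA of SW1783 cells was sequenced in 60 libraries, and the authors deposited expected counts per gene (estimated counts from RSEM). Per the submitters' processing notes, RSEM 1.3.3, STAR 2.7.3a, Trim Galore 0.6.5 and FastQC 0.11.9 were named beside the builds hg38 and GRCh38. No source used here gives the annotation release or strand setting. Of the values 9.22% were not whole, and counts were rounded. Gene symbols came from a separate list of gene names, which gave a symbol to 41209 of the 60675 identifiers. Gene coordinates and exon lengths came from GENCODE 29, which held 57055 of the identifiers. RSEM divides shared reads by estimate, so close paralogs and overlapping genes are uncertain. The 57 libraries of the 19 groups of 3 were fitted together in edgeR 4.0.16 (R 4.3.3; filterByExpr, TMM, glmQLFit, glmQLFTest, Benjamini-Hochberg over 17190 genes, called at adjusted p under 0.05). CPM used TMM-scaled library sizes, except for cell type markers, whose CPM and sums used the plain library total. Standard errors are the absolute log2 fold change over the square root of F. Depth was 18863863 to 36410888 counts per library. Libraries of a group differed by more than sampling noise in every pair (chi-square per degree of freedom 1.74 to 21.9). The code was tested on simulated data.

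The 10 genes, the pathway lists and the tests were chosen with earlier results of these data known, so list counts are descriptions. All 10 genes are named; of each other list, the 3 genes with the largest absolute change called against both vehicle and low dose in the extract with most calls, plus KEAP1, NQO1, HMOX1, SLC3A2, TXNIP and SQSTM1. Genes of like pattern are the 3 with the highest Pearson r for GCLM, TXNRD1, SLC7A11 and NFE2L2. Alternatives were DESeq2 size factors, no filter, a replicate block, no libraries that stood apart, only the groups compared, DESeq2 1.42.0 and leaving out each library. No sample was left out of the main fit except the 3 Bojungikgi-tang libraries, which have no replicates.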

Additional observations from a re-analysis of the deposited data

Results flagged for a closer look

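Values flagged here are those where the rise from low to high dose differed between the extracts of 1 set, by an edgeR interaction with adjusted p under 0.05. Groups of 3 libraries allow no test for an outlying library. All values are log2 differences.

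Between Aconiti Lateralis Radix Preparata and Bupleuri Radix the rise was larger in the first for GCLC by 1.69, SLC7A11 by 1.296, SRXN1 by 0.77, NFE2L2 by 0.59, TXNRD1 by 0.40, GCLM by 0.28, GSR by 0.19 and GSS by 0.16. The 2 subunits of glutamate-cysteine ligase are far apart in this list. TXN gave 0.25 and PRDX1 -0.20 with adjusted p = 0.0503 and 0.0581 in edgeR, just outside the threshold, and both were called without the 2 libraries that stood apart (0.0011 and 0.00016).

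Between Cimicifugae Rhizoma and Citri Unshius Pericarpium the rise was larger in the first for SLC7A11 by 0.32, GCLC by 0.28 and GCLM by 0.25. When only those 4 groups were fitted, none of the 3 was called, and without the 2 libraries that stood apart TXNRD1 and SRXN1 were called too.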

How the results depend on the processing

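Of 378 alternative counts of called genes over 30 comparisons, 53 moved by over 1.5 times. At the high dose against vehicle or low dose, 1440 alternative values of single genes were compared. Of these, 1376 kept their side of the threshold, 46 lost a call and 18 gained one. The 1376 include 39 uncalled values that changed sign. No called value changed sign, which was checked only in these comparisons. The counts below are of the 10 genes called, and except where a fit's smaller set of libraries is the change, the cause was not tested.

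Citri Unshius Pericarpium low against vehicle (1) became 0 with DESeq2 size factors, without the 2 libraries that stood apart or with only the groups compared, and 2 with no filter, with DESeq2 or with the replicate block. Its medium dose (0) became 1 with no filter, without the 2 libraries or with only the groups compared, and its high against low count (5) became 3 with only the groups compared. Cimicifugae Rhizoma medium (1) became 2 with only the groups compared, and its high dose against that of Citri Unshius Pericarpium (5) became 3. The difference of their rises (3) became 5 with the replicate block, with DESeq2 or without the 2 libraries, and 0 with only the groups compared. Banhasasim-tang low (1) became 2 with no filter, DESeq2, the replicate block, only the groups compared or without the 2 libraries. Its medium dose (0) became 1 without the 2 libraries and 2 with only the groups compared, and its high dose (3) became 5 in both. Yijung-tang against Banhasasim-tang high (1) became 2 with no filter or the replicate block and 4 without the 2 libraries. The difference of their rises (0) became 1 with no filter or without the 2 libraries.

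Leaving out 1 library at a time gave 0 to 3 for Citri Unshius Pericarpium low, 0 to 1 for Cimicifugae Rhizoma medium, 0 to 0 for Yijung-tang low, 0 to 1 for Banhasasim-tang low and 1 to 3 for its high dose. It gave 1 to 2 for Yijung-tang against Banhasasim-tang high and 3 to 5 for the difference of rises of Cimicifugae Rhizoma and Citri Unshius Pericarpium. For Aconiti Lateralis Radix Preparata high against low (10) it gave 9 each time. Replicate numbers paired no comparison, since none of 27 had a correlation over 0.1 in each pair. The replicate block moved the 4 counts named above by over 1.5 times. Depth of at least 18863863 counts leaves small changes limited by the spread between libraries, with standard errors of 0.034 to 0.074 for single genes at the high dose.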
